A study of Mus musculus with 12 samples.

Results

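The levels of 42 genes of ribosome manufacture were followed in sorted mouse haematopoietic stem cells: the MYC factors Myc and Mycn, 37 genes of the nucleolus, of RNA polymerase I and of ribosomal subunit assembly, and 3 metabolic targets of MYC. The 42 were a list of names, and each gene was represented by its brightest probe among the tested ones. They form a small share of the 33177 genes tested. All 42 were found on the array and measured on all 12 arrays. Their brightest probes were well above background on every array for 38 genes and on 11 of the 12 for Ddx21, Utp20, Ppan and Wdr74, with sham 1 the array that missed.

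The 12 arrays came from 4 groups of 3 male mice with 1 array per mouse. The control mice had a sham operation. Another group received POL5551, which blocks the chemokine receptor CXCR4, by constant infusion of 100 mg/kg per day for 2 weeks, with cells taken on day 14. The remaining groups were given G-CSF, the granulocyte colony-stimulating factor that drives neutrophil production and is used clinically to mobilise stem cells, in injections of 100 ug/kg spaced 12 h apart, 4 of them over 2 days or 9 over 5 days. In every group the marrow was first enriched for cells bearing Kit, and lineage-negative cells with Sca-1, Kit and the SLAM marker pattern of stem cells were sorted from it. No genotype, strain or age is given in the sources used here.

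Ribosomes are built in the nucleolus. RNA polymerase I, called to the ribosomal DNA by UBTF, copies a long precursor RNA, which small nucleolar particles of the box C/D and box H/ACA classes modify and a large set of assembly factors fold, cut and load with proteins into the small and the large subunit. MYC and its partner MAX bind E-box letters near the start of many of these genes and raise their transcription. Blood stem cells at rest are known to make little protein, and a rise of MYC and of ribosome assembly is known from their entry into the cell cycle.

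To show what the promoters of these genes hold, windows of 300 bases, from 250 before the annotated start to 50 after it, were read from RefSeq on mouse build GRCm38.p6 for 35 of the 42 genes. The windows were searched on both strands for CACGTG, the classical E-box, which reads the same on both strands, and for CACGCG, a variant of it that reads CGCGTG on the other strand. The 2 motifs cannot lie on the same letters. CACGTG was in the windows of 4 of 35 genes (11.4%), against 8.09% of the 27025 genes with a window and 9.33% of the tested genes with one. CACGCG was in 13 of 35 (37.1%), against 10.5% of all genes with a window and 13.9% of the tested genes. These windows were also richer in G and C, with a median of 58.8% against 52.7% over all windows, and the motif letters were chosen with the gene list known, so both shares are descriptions. In 129 other listed ribosome assembly and MYC genes with a window, the shares over the whole window were 31% for CACGTG and 30.2% for CACGCG. Before the start alone, CACGCG was in 7 of 35 (20%), against 11.4% of the tested genes with a window. Only Nop2 of the 35 held CACGTG there (2.86%), against 7.93% of those tested genes. The stretch that carries it is shown first, at chr6:125131803-125131848 on the plus strand. The others are examples of CACGCG before the start, with the motif of each in capitals and all lines written along the strand of the gene: Nolc1 at chr19:46075802-46075846 (plus), Nip7 at chr8:107056816-107056861 (plus), Bysl at chr17:47611596-47611641 (minus) and Polr1c at chr17:46248189-46248240 (minus), where the motif stands once on each strand.
Nop2: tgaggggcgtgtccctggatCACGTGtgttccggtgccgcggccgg
Nolc1: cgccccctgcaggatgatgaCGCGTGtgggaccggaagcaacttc
Nip7: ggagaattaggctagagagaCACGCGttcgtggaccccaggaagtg
Bysl: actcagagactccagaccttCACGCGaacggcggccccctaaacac
Polr1c: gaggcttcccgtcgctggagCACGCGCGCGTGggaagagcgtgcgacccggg

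Levels are log2 of the processed signal minus the array's 75th percentile, so 0 is the level of the 75th percentile probe and a difference of 1 is a 2-fold change. Levels of different genes come from different probes and are not compared with each other. That percentile was 1638 for sham 1, the lowest, and 5579 for the highest array, and 75.3% to 85.6% of probes were well above background. Markers of the sorted cells were detected: Kit, Ly6a (Sca-1) and Procr on 12 of 12 arrays and Slamf1 on 11. Cd48, another gene of the list of stem cell and sort genes, was also well above background on 12. Its mean level was -1.06 in sham and -0.65 after 2 days of G-CSF. Detection alone thus does not show how pure the sorted cells were. Sham 1 stood apart from the other shams in these genes. It lay below both of them for 32 of the 42, by more than 1 below each of them for 14 and by more than 2 for 7, and above both for 8. The 3 arrays of the 2-day group shared 1 slide that held no other group, so that slide and 2 days of G-CSF cannot be told apart. An exact test of 3 mice against 3 cannot give a p below 0.1, and the tests below are limma's moderated tests, with p adjusted over all 33177 genes by Benjamini and Hochberg's method and a threshold of 0.05.

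None of the 42 genes passed limma's threshold in any of the 5 comparisons, and none passed the F test over the 4 groups, by which 1.34% of all genes were called. Without adjustment, 8 of the 42 (19%) had an F test p under 0.05, against 34% of all genes. By group means, the lowest mean of the 4 groups was after 2 days of G-CSF for 25 genes and in sham for 12, and the highest mean was after POL5551 for 31. Without sham 1 these counts were 34, 2 and 31.

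**Figure D1:**
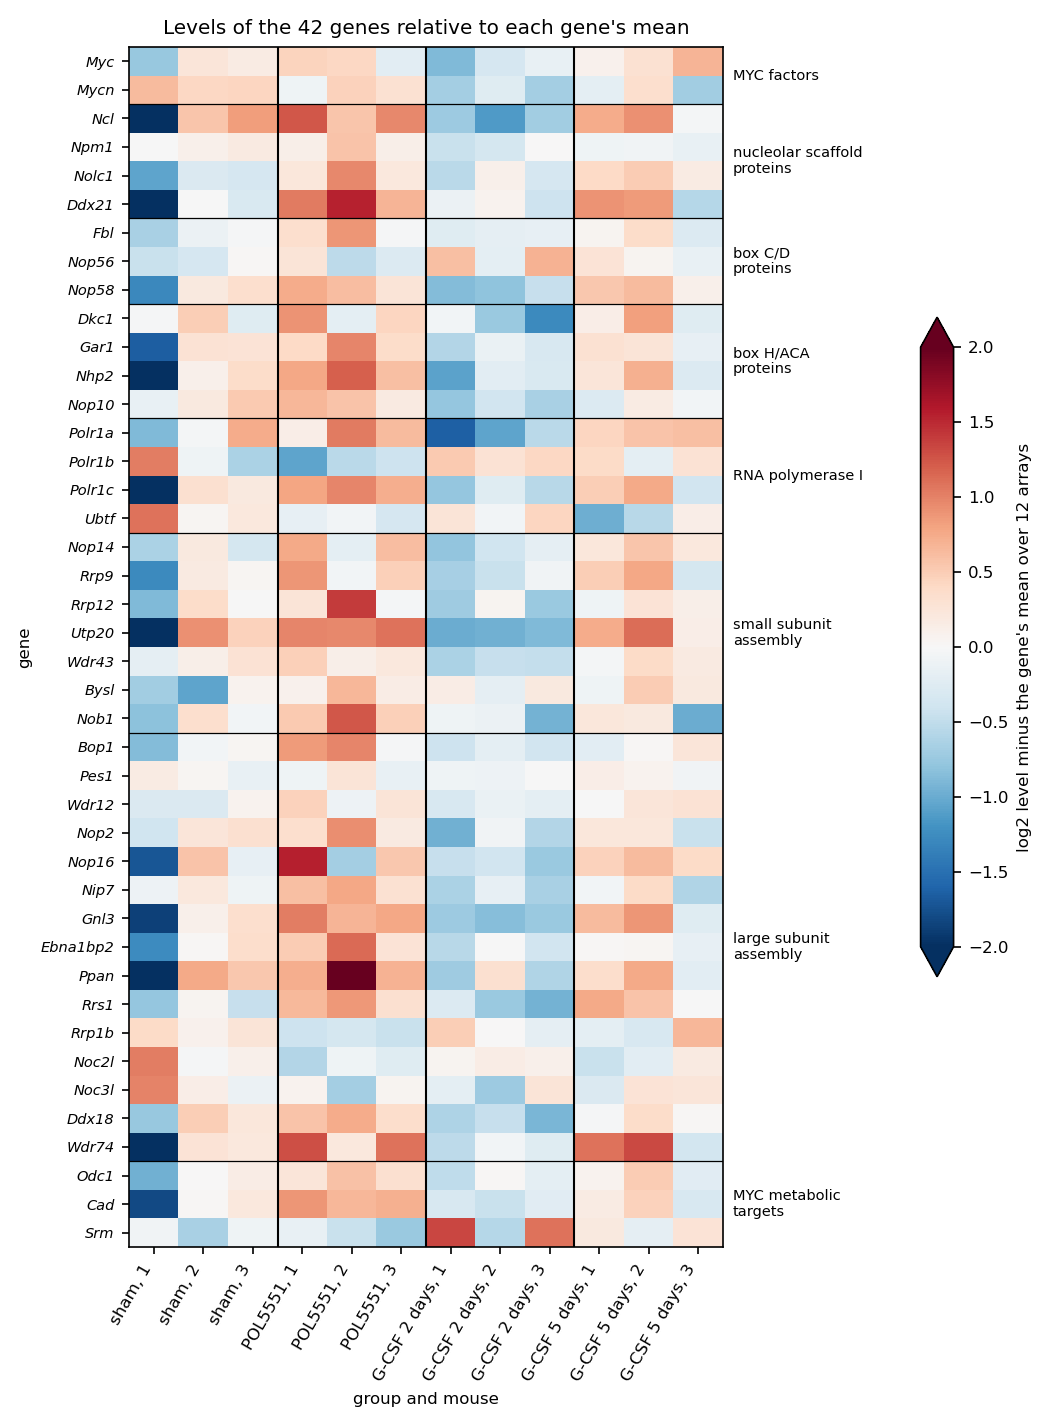
Level of each of the 42 genes (rows, by role) on each of the 12 arrays (columns, by group and mouse), as log2 level minus the gene's own mean, with colours ending at 2 and -2. Most rows are blue on sham 1 and on the 3 arrays of the 2-day group and red on the POL5551 arrays, with Polr1b, Ubtf, Rrp1b, Noc2l, Noc3l and Srm among the rows that do otherwise.

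The median over the 42 genes of their deviation from each gene's mean was -0.77, 0.11 and 0.15 on the 3 sham arrays, 0.49, 0.60 and 0.29 on the POL5551 arrays, -0.53, -0.21 and -0.35 after 2 days of G-CSF, and 0.18, 0.38 and -0.04 after 5 days. The POL5551 arrays were all above the sham and 2-day arrays, and the 2-day arrays were all below the 5-day arrays, while sham 1 was the lowest array of all. The level of 1540 probes for genes that blood cells do not use (olfactory, vomeronasal, taste and keratin-associated genes, called off-tissue probes) moved the other way. Its median was -1.60, -3.30 and -3.45 in sham, -5.17, -4.50 and -4.10 after POL5551, -2.40, -2.72 and -2.59 after 2 days, and -3.97, -3.87 and -3.24 after 5 days. Its part in the differences below was not tested apart from a fit that carries it as a covariate, whose values stand beside the medians they change. The slope of that fit comes from differences within groups, where sham 1 weighs most, and is carried over to differences between groups. Of all 33177 genes tested, 25009 had a probe well above background on all 12 arrays, and 1159 were off-tissue genes. Those 1159 came from 1463 off-tissue genes on the array, so most of these passed the filter on signal above background. A probe well above background therefore does not by itself show that its gene is expressed. Between POL5551 and sham those 1159 had a median difference of -1.42. The medians and overlap shares over all genes below were thus not taken over genes as bright as the 42. In sorted bulk samples, fewer cells of a type and less RNA per cell cannot be told apart.

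**Figure D2:**
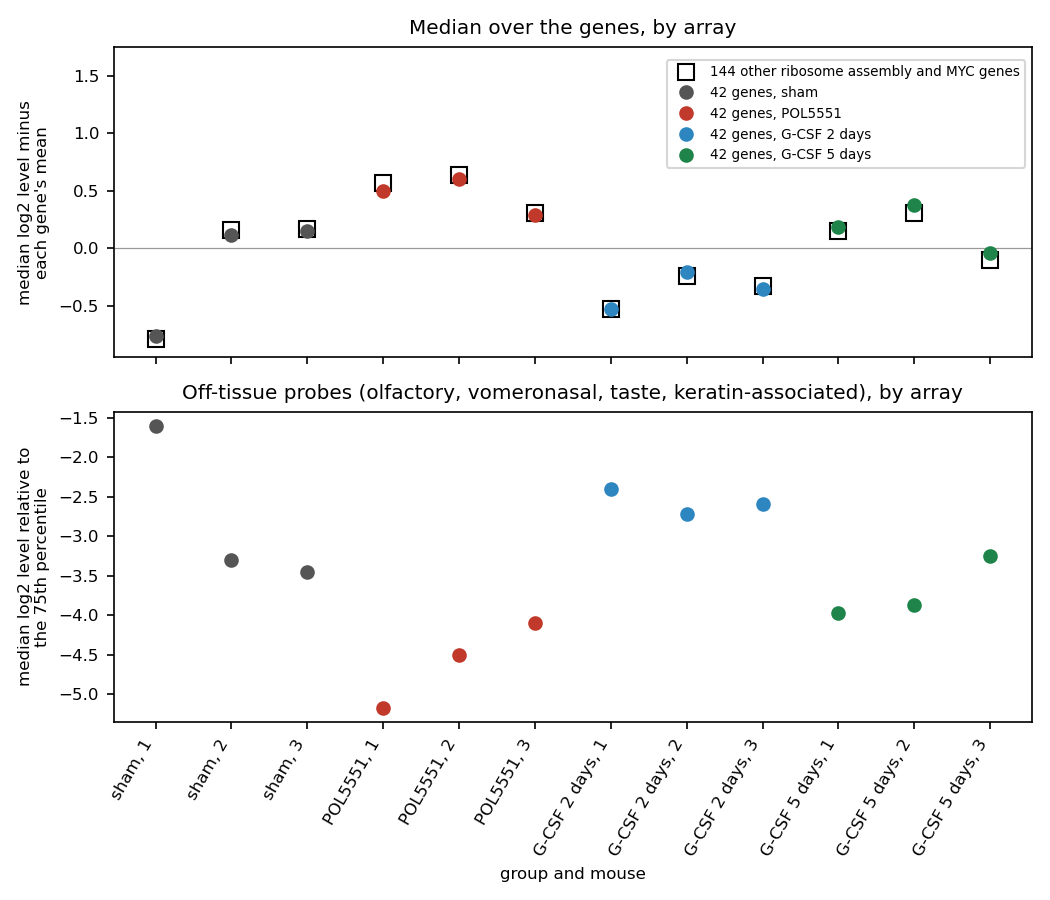
The upper panel plots, for each array (x axis, group and mouse), the median log2 deviation from each gene's mean over the 42 genes (coloured points) and over 144 other ribosome assembly and MYC genes (open squares), and the lower panel plots the median log2 level of 1540 off-tissue probes. The 42 genes are lowest on sham 1 (-0.77) and next on the 2-day arrays, where the off-tissue level is highest (-1.60 on sham 1).

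The comparison of 5 with 2 days of G-CSF asked how the genes stood as treatment went on. Of the 42, 36 had a higher mean after 5 days, with a median log2 difference of 0.55 against -0.27 over all genes tested. No gene of the 42 was called, and the background was also 0% (limma, 0 of 33177 genes, with 5365, or 16.2%, at an unadjusted p under 0.05). At that unadjusted level 7 of the 42 were higher and none lower, namely Polr1a, Rrs1, Nop58, Wdr43, Gnl3, Nop14 and Ddx18. For 14 of the 42 (33.3%) every 5-day mouse was above every 2-day mouse, against 11.8% of all genes, and none lay wholly below, against 23.3%. The 14 were Myc, Ncl, Nolc1, Nop58, Nop10, Polr1a, Nop14, Utp20, Wdr43, Wdr12, Nop16, Gnl3, Rrs1 and Ddx18. With limma's array weights, which gave sham 1 a weight of 0.14, 8 of the 42 were called higher, namely Gnl3, Nop58, Polr1a, Rrs1, Utp20, Ncl, Ddx18 and Wdr43, with adjusted p from 0.0293 to 0.0468, while 13.9% of all genes were called in either direction and 3.07% were called higher. With the off-tissue level in the fit as a covariate, the median difference was 0.08, with 23 of the 42 above 0.

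The infusion of POL5551 was set against sham. Of the 42 genes, 34 had a higher mean after POL5551, with a median log2 difference of 0.66 against -0.52 over all genes. None was called, where 2.24% of all genes were (limma, 58 of 744 calls higher, and 50 of 214 with median scaling), and the smallest adjusted p was that of Nolc1, 0.0881. At an unadjusted p under 0.05 10 of the 42 were higher and 0 lower, and 35% of all genes were past it in either direction (2765 higher and 8862 lower). All POL5551 mice were above all shams for 14 genes (33.3%), against 10.6% of all genes. These were Nolc1, Ddx21, Fbl, Gar1, Nhp2, Polr1c, Utp20, Bysl, Nob1, Nip7, Gnl3, Rrs1, Odc1 and Cad. Ubtf, Rrp1b and Noc2l lay wholly below sham (7.14%), against 25.8% of all genes. Without sham 1 the median was 0.30 (all genes -0.26), again with 34 genes above 0. Against the 2 other shams 14 genes lay wholly above and 3 wholly below, where 12.1% and 27.3% of all genes did. Within slides, the POL5551 array that shared a slide with sham 1 was higher by a median of 1.20, and the one that shared a slide with shams 2 and 3 by 0.37. With the off-tissue covariate the median was -0.20, with 15 of the 42 above 0.

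The 2-day course of G-CSF was compared with the same 3 shams. Here 28 of the 42 genes had a lower mean than sham, with a median of -0.17 against 0.10 over all genes. None was called (limma, 0.0332% of all genes called). At an unadjusted p under 0.05, 4 were lower (Mycn, Nop10, Polr1a and Wdr43) and none higher, with 9.12% of all genes past it in either direction. Mycn, Nop10, Wdr43 and Nip7 were lower in every 2-day mouse than in every sham, which is 9.52% of the 42 against 5.36% of all genes, and none was wholly higher, against 6.63%. These values depended on sham 1. Without it the median was -0.51 (all genes 0.21), 35 of the 42 genes had a lower mean, and 25 lay wholly below the other shams with 1 wholly above, against 20.4% and 31% of all genes. Of the 42, none was called in that fit either, and the smallest adjusted p were those of Utp20 (-1.63, adjusted p = 0.0573 by limma) and Ncl (-1.55, adjusted p = 0.0718).

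After 5 days of G-CSF, which shares the same shams, the mean was higher than in sham for 32 of the 42 genes, with a median of 0.35 against -0.13 over all genes, and none was called (limma, 0.0663% of all genes called). Nolc1 and Rrs1 were higher and Ubtf lower at an unadjusted p under 0.05, as 11.1% of all genes were in either direction. Nolc1 and Nop14 lay wholly above sham and Mycn and Npm1 wholly below, 4.76% in each direction against 4.41% and 8.14% of all genes, so these counts were close to or under the background. Without sham 1 the median was 0.03 and 23 of the 42 were above 0, and with the off-tissue covariate it was -0.05. With slide as a fixed block it was 0.99, with 36 of the 42 above 0. No slide held both a sham and a 5-day array, so that value runs through the POL5551 arrays that shared slides with each.

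POL5551 was also set against 5 days of G-CSF, a difference of means that does not draw on the shams. Its SE and p still do, since the spread was pooled over all 12 arrays. The median was 0.27 (all genes -0.28), 33 of the 42 were higher after POL5551, and none was called (limma, 0.0603% of all genes called) or had an unadjusted p under 0.05, against 11.6% of all genes. Npm1, Gar1, Nop10, Nob1, Ebna1bp2 and Cad lay wholly above the 5-day mice (14.3%, against 10.3% of all genes), and Polr1b and Rrp1b wholly below (4.76%, against 15.2%). On the slide that carried an array of each group the median was -0.10, with 11 of the 42 higher after POL5551, so the direction over all arrays did not hold within that slide. With the off-tissue covariate it was -0.15.

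**Figure D3:**
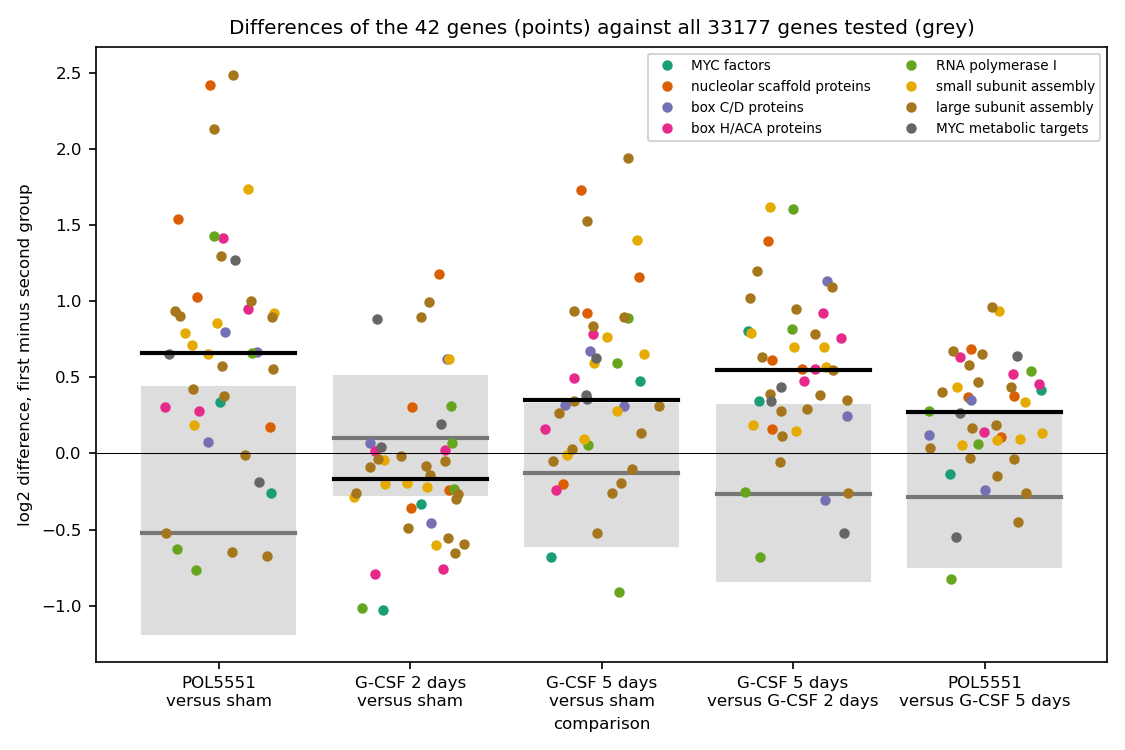
Log2 differences (y axis) of the 42 genes in the 5 comparisons (x axis), coloured by role, with their median as a black line, the median over all 33177 genes as a grey line and the middle part of all genes, from the 25th to the 75th percentile, as a grey box. The black line is above the grey one in 4 comparisons and below it in G-CSF 2 days versus sham, at -0.17 against 0.10.

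The MYC factors differed in the order of their group means, with sham the highest for Mycn and 5 days of G-CSF the highest for Myc. Myc (probe at chromosome 15, 61820925 to 61820984 on mouse build mm9), the main MYC gene of blood cells, had levels of 2.86, 3.86 and 3.78 in sham, 4.07, 4.04 and 3.41 after POL5551, 2.75, 3.29 and 3.48 after 2 days of G-CSF, and 3.71, 3.93 and 4.30 after 5 days. On this probe every 5-day mouse was above every 2-day mouse, and the sham and POL5551 mice overlapped both. The difference between 5 and 2 days was 0.81 (SE 0.37, adjusted p = 0.312) by limma. A further Myc probe, from the same part of chromosome 15 and well above background on all 12 arrays, differed by 1.57. On it the 2-day mice (0.13, 0.64 and 0.87) lay below every sham (1.13, 1.88 and 2.38) and every POL5551 mouse. Between 2 days and sham it differed by -1.25, against -0.33 with the brightest probe. Mycn, the paralog that is active in stem and progenitor cells (chromosome 12, 12942981 to 12943040), had levels of 2.67, 2.46 and 2.48 in sham, 1.96, 2.51 and 2.36 after POL5551, 1.37, 1.81 and 1.36 after 2 days of G-CSF, and 1.84, 2.38 and 1.35 after 5 days. The shams were tight and all above the 2-day and 5-day mice, with 2.38 in mouse 2 of the 5-day group the closest to them. Mycn differed from sham by -1.02 (SE 0.33, adjusted p = 0.435) by limma after 2 days and -0.68 (SE 0.33, adjusted p = 0.467) after 5 days. The 2-day value without sham 1 was -0.96.

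Among the scaffold proteins of the nucleolus, nucleolin (Ncl), Nolc1, which carries small nucleolar particles, and the RNA helicase Ddx21 had lower values on sham 1 than on any other array. Nolc1 levels were -0.07, 0.68 and 0.64 in sham, 1.20, 1.94 and 1.18 after POL5551, 0.44, 1.08 and 0.65 after 2 days of G-CSF, and 1.37, 1.49 and 1.15 after 5 days. All POL5551 and 5-day mice were above all shams and all 2-day mice. Against sham it differed by 1.03 (SE 0.34, adjusted p = 0.0881) by limma after POL5551 and by 0.92 (SE 0.34, adjusted p = 0.386) after 5 days, and without sham 1 by 0.78 and 0.68. Ddx21 had levels of -5.18, -1.48 and -1.78 in sham, -0.45, 0.06 and -0.80 after POL5551, -1.60, -1.41 and -1.89 after 2 days of G-CSF, and -0.58, -0.62 and -2.05 after 5 days. The probe was not well above background on sham 1, which lay more than 3 below every other array, and the difference of 2.42 after POL5551 became 1.24 without that array. After 2 days of G-CSF the Ddx21 difference of 1.18 (SE 0.82) rested on sham 1, being close to 0 without it. Npm1, nucleophosmin, a chaperone of ribosomal proteins and histones, had levels of 5.14, 5.25 and 5.32 in sham, 5.26, 5.72 and 5.25 after POL5551, 4.70, 4.79 and 5.15 after 2 days of G-CSF, and 5.05, 5.08 and 4.99 after 5 days. On this probe the range over the groups was narrow, and the 5-day mice lay just below the shams, with a difference of -0.20 (SE 0.27, adjusted p = 0.777) in limma's fit. The further Npm1 probes, well above background on all 12 arrays, differed the other way there, by 0.31 and 0.34. After POL5551 against sham they differed by 1.04 and 0.94, so the narrow range is that of the brightest probe only. Ncl was higher after 5 than after 2 days by 1.40 (SE 0.85), with every 5-day mouse above every 2-day mouse.

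The box C/D particle adds methyl groups to ribosomal RNA through fibrillarin (Fbl), held by Nop56 and Nop58. Nop58 levels were -0.24, 1.26 and 1.40 in sham, 1.81, 1.68 and 1.33 after POL5551, 0.19, 0.25 and 0.61 after 2 days of G-CSF, and 1.59, 1.69 and 1.16 after 5 days. The 2-day mice were below every array but sham 1, and the difference between 5 and 2 days was 1.13 (SE 0.42, adjusted p = 0.265) by limma. Nop58 has 4 further probes, which differed the same way. Nop56 had levels of 2.59, 2.70 and 3.07 in sham, 3.31, 2.52 and 2.76 after POL5551, 3.65, 2.85 and 3.73 after 2 days of G-CSF, and 3.32, 3.09 and 2.90 after 5 days. Here 2-day mice 1 and 3 were the highest of the 12, and 5 minus 2 days was -0.30 (SE 0.34). Fbl was higher after POL5551 than in sham by 0.66 (SE 0.33), with all POL5551 mice above all shams.

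The box H/ACA particle turns uridine of ribosomal RNA into pseudouridine, with Dkc1 as the enzyme and Gar1, Nhp2 and Nop10 as its partners. All 4 had higher means after 5 than after 2 days of G-CSF and after POL5551 than in sham, counts that the off-tissue covariate lowered to 2 and 0 of 4. Nop10 (chromosome 2, 112102712 to 112102771) had levels of 2.95, 3.29 and 3.62 in sham, 3.76, 3.66 and 3.28 after POL5551, 2.32, 2.72 and 2.45 after 2 days of G-CSF, and 2.83, 3.26 and 3.05 after 5 days. All 2-day mice were below all other mice. The 2-day group differed from sham by -0.79 (SE 0.30, adjusted p = 0.477) and the 5-day group from the 2-day group by 0.55 (SE 0.30, adjusted p = 0.36), both by limma. Dkc1 differed from sham after 2 days of G-CSF by -0.76 (SE 0.43) with groups that overlapped. Nhp2 and Gar1 were higher after POL5551 by 1.41 (SE 0.59) and 0.95 (SE 0.48), and without sham 1 by 0.62 and 0.31.

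In RNA polymerase I, Polr1a encodes the largest subunit (chromosome 6, 71929251 to 71929310). Its levels were -2.07, -1.24 and -0.45 in sham, -1.06, -0.16 and -0.56 after POL5551, -2.83, -2.24 and -1.73 after 2 days of G-CSF, and -0.77, -0.62 and -0.59 after 5 days. The 5-day mice were tight and all above the 2-day mice. The difference, 1.61 (SE 0.44, adjusted p = 0.25), had the smallest limma p of the 42 genes in this comparison, 0.00388 before adjustment. Its 2-day mean differed from sham by -1.01 (SE 0.44), although 2-day mouse 3 lay within the range of the shams. The further Polr1a probes differed there by only 0.16 and -0.16, so that difference rests on the brightest probe. Polr1c, shared with RNA polymerase III, was higher after POL5551 by 1.43 (SE 0.61), and by 0.57 without sham 1, its lowest array. The brightest probes of Polr1b and Ubtf differed in the other direction. Polr1b, the second largest subunit, had levels of -0.01, -1.12 and -1.68 in sham, -2.08, -1.58 and -1.44 after POL5551, -0.51, -0.74 and -0.63 after 2 days of G-CSF, and -0.66, -1.23 and -0.75 after 5 days. The POL5551 mice were below all 5-day mice, with a difference of -0.83 (SE 0.41, adjusted p = 0.441) in limma's fit, and differed from sham by -0.77 (SE 0.41), or -0.31 without sham 1. Ubtf, the factor that brings the polymerase to ribosomal DNA, had levels of 8.35, 7.30 and 7.47 in sham, 7.10, 7.22 and 6.93 after POL5551, 7.52, 7.21 and 7.70 after 2 days of G-CSF, and 6.29, 6.71 and 7.41 after 5 days. Sham 1 was the highest and 5-day mouse 1 the lowest, and the 5-day mean differed from sham by -0.91 (SE 0.38, limma adjusted p = 0.417) with groups that overlapped, and by -0.59 without sham 1.

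All 7 genes of small subunit assembly had higher means after POL5551 than in sham and after 5 than after 2 days of G-CSF, against 2 and 4 of 7 with the off-tissue covariate. Wdr43, a protein of the early small subunit particle (chromosome 17, 72006968 to 72007027), had levels of 0.81, 1.11 and 1.28 in sham, 1.46, 1.11 and 1.19 after POL5551, 0.36, 0.52 and 0.51 after 2 days of G-CSF, and 0.95, 1.36 and 1.17 after 5 days. The 2-day mice were below all other mice. The difference between 5 and 2 days was 0.70 (SE 0.27, adjusted p = 0.272) by limma, and that between 2 days and sham -0.60 (SE 0.27, adjusted p = 0.546). Utp20, of the same particle, had levels of -5.75, -1.28 and -1.73 in sham, -1.21, -1.23 and -1.11 after POL5551, -3.19, -3.15 and -3.08 after 2 days of G-CSF, and -1.44, -1.07 and -2.05 after 5 days. Sham 1, where the probe was not well above background, was the lowest by more than 2, and the 2-day mice were close to each other and below all 5-day mice. Utp20 differed by 1.62 (SE 0.90) between 5 and 2 days, where the SE pooled over groups carries the spread of the shams. Nob1, the nuclease that makes the final cut of 18S RNA, had levels of -2.72, -1.57 and -1.96 in sham, -1.38, -0.66 and -1.43 after POL5551, -1.98, -2.02 and -2.84 after 2 days of G-CSF, and -1.68, -1.70 and -2.89 after 5 days. All POL5551 mice were above all shams and all 5-day mice, by 0.92 (SE 0.45) and 0.94 (SE 0.45, adjusted p = 0.435) in limma's fit, and the former was 0.61 without sham 1. Bysl, needed for late small subunit maturation, was higher after POL5551 by 0.86 (SE 0.35), and Nop14 after 5 days of G-CSF by 0.60 (SE 0.35) against sham. Rrp9, a protein of the U3 particle, and Rrp12, a factor of late maturation and export, were higher after 5 than after 2 days by 0.70 (SE 0.46) and 0.57 (SE 0.45), with groups that overlapped.

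Of the 15 genes of large subunit assembly, 13 had higher means after 5 than after 2 days of G-CSF and 11 after POL5551 than in sham, against 10 and 7 with the off-tissue covariate. Rrs1, which brings the 5S particle into the large subunit (chromosome 1, 9537213 to 9537272), had the smallest F test p of them (adjusted p = 0.0762 by limma) and levels of -1.84, -1.02 and -1.53 in sham, -0.43, -0.21 and -0.75 after POL5551, -1.34, -1.81 and -2.02 after 2 days of G-CSF, and -0.31, -0.50 and -1.08 after 5 days. The 5-day and POL5551 mice were above all 2-day mice, and the POL5551 mice above all shams. Rrs1 differed by 1.09 (SE 0.35, adjusted p = 0.25) between 5 and 2 days and by 1.00 (SE 0.35, adjusted p = 0.0928) between POL5551 and sham, both by limma. Gnl3, nucleostemin, a GTPase of the nucleolus of stem cells, was higher after 5 than after 2 days by 1.20 (SE 0.53) and after POL5551 than in sham by 1.30 (SE 0.53), the latter 0.60 without sham 1. Bop1, of the complex with Pes1 and Wdr12, had levels of 1.90, 2.71 and 2.79 in sham, 3.61, 3.74 and 2.73 after POL5551, 2.35, 2.56 and 2.37 after 2 days of G-CSF, and 2.55, 2.78 and 3.01 after 5 days. POL5551 mice 1 and 2 were above all other mice and mouse 3 was among the shams. The brightest probe of Pes1, its partner, differed by -0.08 to 0.11 over the 5 comparisons. A further Pes1 probe, also well above background on all 12 arrays, differed by 0.79 after POL5551 and 0.70 after 5 days against sham and by 0.99 between 5 and 2 days, so the probes of Pes1 did not give 1 size of change. Wdr12, the third member of the complex, was higher after 5 than after 2 days by 0.39 (SE 0.28).

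The other large subunit factors mostly took the same order with smaller or more variable differences. Between 5 and 2 days of G-CSF, Nop16 differed by 1.02 (SE 0.61) and the RNA helicase Ddx18 by 0.79 (SE 0.35), both with groups that did not overlap. The RNA methyltransferase Nop2, whose promoter stretch with CACGTG is shown above, differed by 0.55 (SE 0.37) with groups that overlapped. Nip7 was higher after POL5551 than in sham by 0.55 (SE 0.32) and differed by -0.49 (SE 0.32) after 2 days of G-CSF, and neither treated group overlapped sham. Ebna1bp2, a scaffold of the large subunit precursor, was higher after POL5551 by 0.94 (SE 0.42) with sham 1 the lowest array, and by 0.46 without it. Noc3l had lower means than sham in all 3 treated groups, at -0.52, -0.55 and -0.26 as log2 differences after POL5551 and after 2 and 5 days of G-CSF (SE 0.40 each), and sham 1 was the highest of its 12 arrays. Without sham 1 these differences were -0.19, -0.23 and 0.06, so the direction after 5 days turned.

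For Ppan and Wdr74, both factors of large subunit precursors, the differences from sham rested largely on sham 1. Ppan had levels of -5.94, -0.21 and -0.43 in sham, -0.24, 1.39 and -0.27 after POL5551, -1.68, -0.64 and -1.57 after 2 days of G-CSF, and -0.62, -0.21 and -1.17 after 5 days, and the 2.48 between POL5551 and sham became 0.61 without sham 1. Wdr74 levels were -4.27, 0.27 and 0.21 in sham, 1.29, 0.21 and 1.09 after POL5551, -0.52, -0.05 and -0.24 after 2 days of G-CSF, and 1.08, 1.32 and -0.37 after 5 days, and its difference after 2 days of G-CSF turned from 0.99 to -0.51 without sham 1. Neither probe was well above background on that array. Noc2l, which exports large subunit precursors with Noc3l, had levels of 2.81, 1.77 and 1.89 in sham, 1.20, 1.71 and 1.54 after POL5551, 1.85, 1.93 and 1.90 after 2 days of G-CSF, and 1.34, 1.58 and 1.98 after 5 days. The POL5551 mice were below all shams, with a difference of -0.67 (SE 0.34), which was -0.35 without sham 1, the highest array.

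The metabolic targets were Cad, the enzyme that starts pyrimidine synthesis, Odc1, which starts polyamine synthesis, and Srm, spermidine synthase. Cad levels were 0.99, 2.81 and 3.00 in sham, 3.67, 3.45 and 3.49 after POL5551, 2.47, 2.34 and 2.56 after 2 days of G-CSF, and 2.96, 3.25 and 2.47 after 5 days. All POL5551 mice were above all other mice, by 1.27 (SE 0.47, adjusted p = 0.105) against sham in limma's fit and 0.64 (SE 0.47) against 5 days of G-CSF, and the former was 0.63 without sham 1. Odc1 had levels of 2.36, 3.33 and 3.47 in sham, 3.56, 3.90 and 3.64 after POL5551, 2.81, 3.34 and 3.12 after 2 days of G-CSF, and 3.38, 3.83 and 3.09 after 5 days. The POL5551 mice were above the shams by 0.65 (SE 0.36), or 0.30 without sham 1, and mouse 2 of the 5-day group was among them. Srm had levels of 2.75, 2.17 and 2.74 in sham, 2.66, 2.37 and 2.07 after POL5551, 4.16, 2.24 and 3.90 after 2 days of G-CSF, and 3.01, 2.64 and 3.09 after 5 days. Of the 2-day mice, 1 and 3 were the highest of all and mouse 2 among the lowest, so that 5 minus 2 days, -0.52 (SE 0.46), was within the spread.

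**Figure D4:**
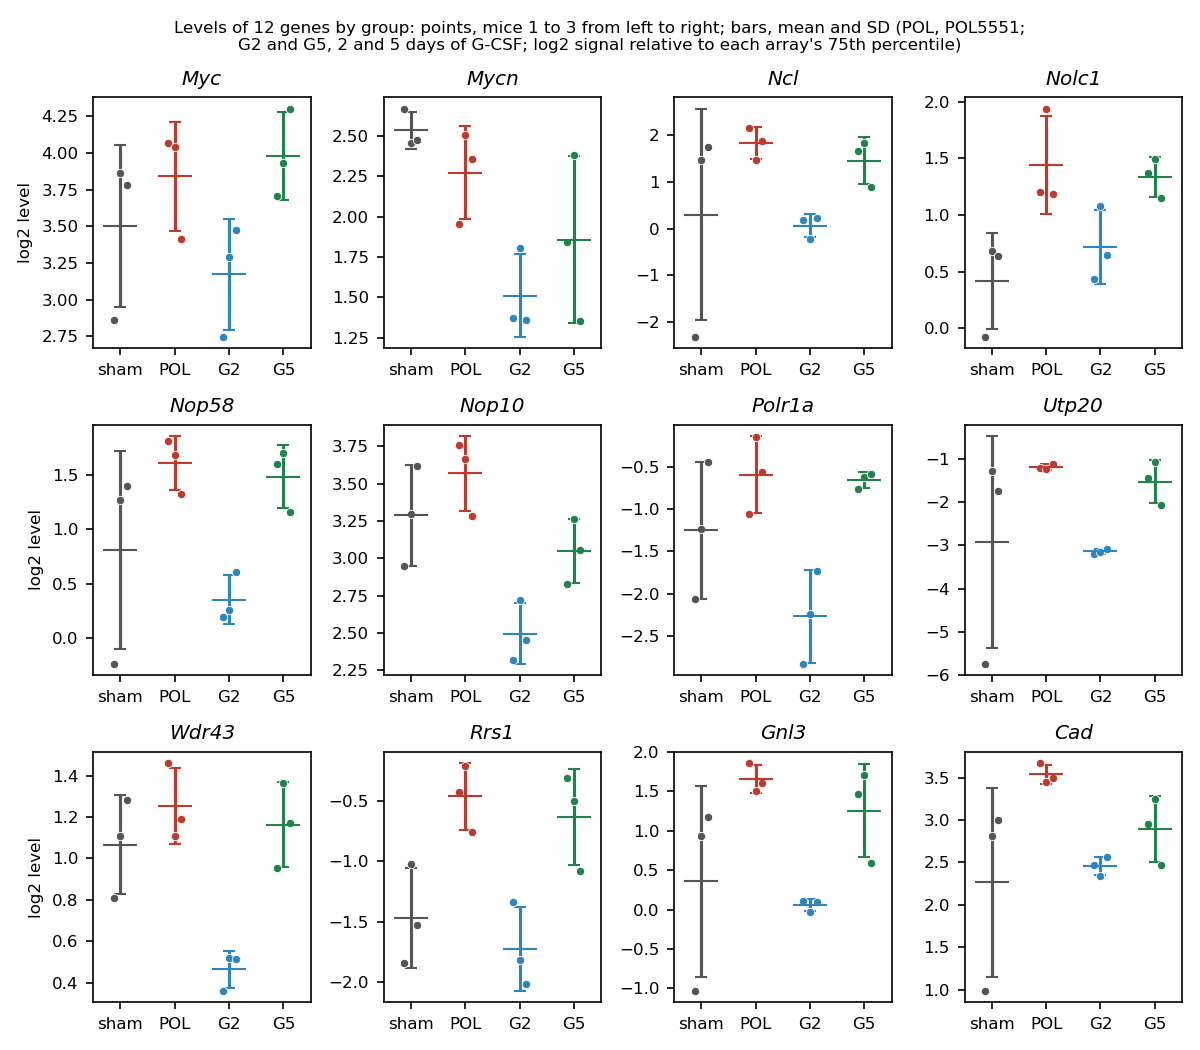
Log2 level (y axes, 1 scale per gene) of 12 of the 42 genes by group (x axes), with a point per mouse and bars for the mean and SD of 3 mice. In Nop58, Nop10, Polr1a, Wdr43, Rrs1 and Gnl3 every 2-day mouse lies below every 5-day mouse, and in Ncl, Utp20, Gnl3 and Cad sham 1 lies far below the other shams.

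Probes of the same gene did not always agree in sign. Of the 42 genes, 23 had 39 further probes that passed the filter, and 16 of the 39 (in 10 genes) had the sign opposite to the brightest probe between 5 and 2 days of G-CSF, as did 14 (in 9 genes) between POL5551 and sham. Over all 81 probes the median difference between 5 and 2 days was 0.70, with 70 above 0, and between POL5551 and sham 0.66, with 69 above 0. The genes whose brightest probe was lower after 5 than after 2 days were Nop56, Polr1b, Ubtf, Rrp1b, Noc2l and Srm. Each of these 6 had further probes, 11 in all, and all 11 were above 0, from 0.05 to 1.61. The rest of the 16 opposite probes lay below 0, in genes whose brightest probe was above it. They were probes of Rrp12 (-0.59), Wdr12 (-0.49 and -0.20), Cad (-0.44) and Polr1a (-0.20). After POL5551 against sham, 6 of the 8 genes below 0 had further probes, and all 10 of those probes were above 0. There the rest of the 14 lay below 0 under a brightest probe above it, in Rrp12 (-0.98), Wdr12 (-0.74 and -0.50) and Polr1a (-0.14). For 5 days against sham 13 of the 39 (in 8 genes) were opposite. Of the 10 genes below 0 there, Npm1, Ubtf, Rrp1b and Noc2l had further probes, and all 8 were above 0, from 0.02 to 1.45. For 2 days against sham 16 of the 39 (in 13 genes) were opposite, such as Srm with 0.88 on its brightest probe and -0.73 and -0.89 on the others. In Srm the brightest probe differed by -0.52 between 5 and 2 days and the others by 1.16 and 1.06. Rrp1b differed by -0.64 after POL5551 with its brightest probe and by 0.43, 0.93 and 2.18 with the others, and Ubtf by -0.63 against 0.98 and 0.63. Without sham 1 the brightest probes of Rrp1b and Ubtf differed by -0.57 and -0.30 after POL5551. Which probe reports the mature transcript was not tested. The directions given above for these genes are those of the brightest probe only.

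**Figure D5:**
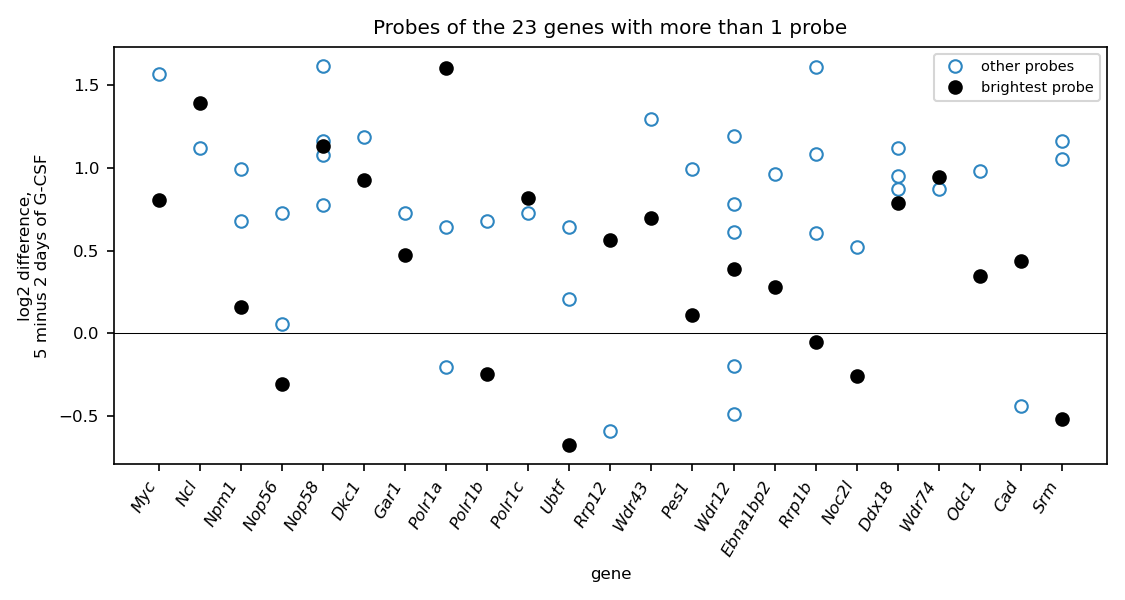
Log2 difference between 5 and 2 days of G-CSF (y axis) for the 23 genes with more than 1 probe (x axis), with the brightest probe as a filled point and the others as open circles. The 6 genes with a filled point below 0, Nop56, Polr1b, Ubtf, Rrp1b, Noc2l and Srm, have all their open circles above it.

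Another 144 genes of the same pathways, taken from lists of the MYC network, RNA polymerase I, assembly of either subunit and MYC growth targets, had no call in any comparison (limma). Their medians were 0.70 for POL5551 against sham, -0.06 and 0.31 for 2 and 5 days of G-CSF against sham, 0.50 for 5 against 2 days, and 0.38 for POL5551 against 5 days, with 120, 59, 109, 124 and 115 genes above 0. At an unadjusted p under 0.05 between 5 and 2 days, 15 were higher and 4 lower. Dimt1, a methyltransferase of 18S RNA, differed by 1.29 (limma adjusted p = 0.25), and Utp4, of the small subunit particle, by 1.11 (adjusted p = 0.25). Mlxip, a glucose-sensing member of the MYC network, differed by 1.22 (adjusted p = 0.25) between 5 and 2 days and by -1.37 (adjusted p = 0.257) between 2 days and sham. After POL5551, Zbtb17, the MYC partner MIZ1, was higher by 1.56 (adjusted p = 0.0563), and Nop9 lower by 2.15 on the log2 scale (limma adjusted p = 0.0734), again without a call.

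Marker lists of the sorted cells and of 10 other kinds of cell were followed over the same arrays, as the median deviation from each gene's mean. The gate is lineage-negative, so it is meant to leave out the mature blood cells among them. The list of 15 stem cell and sort genes, 13 of them well above background on all arrays, ran from -1.16 to 0.35 in sham, 0.33 to 0.57 after POL5551, -0.52 to -0.07 after 2 days of G-CSF and -0.23 to 0.04 after 5 days. Sham 1 was low here as well, but the ranges of sham and POL5551 overlapped. Between POL5551 and sham the median difference of this list was 0.42, and 0.07 without sham 1, with 10 of 15 above 0.

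The list with the largest median difference between POL5551 and sham was that of 12 stromal genes, 10 of them well above background on all arrays. They ran from -1.32 to -0.76 in sham, -0.12 to 1.56 after POL5551, -0.67 to 0.90 after 2 days of G-CSF and -0.52 to 1.19 after 5 days, with the shams below all other arrays. Between POL5551 and sham their median difference was 2.34, with 8 of 12 above 0, and 2.46 without sham 1. Pdgfrb, the PDGF receptor of stromal cells and pericytes, and Ebf3, a transcription factor of marrow stroma, were called higher after POL5551 by limma. Pdgfrb differed by 3.62 (adjusted p = 0.0336 by limma) and by 2.63 (adjusted p = 0.0276) without sham 1. Ebf3, well above background on 0 of 3 sham arrays, was at least 11.2-fold higher after POL5551 (limma adjusted p = 0.0197, and 0.0593 without sham 1). Cxcl12, the ligand of CXCR4 and a defining gene of marrow stroma, was well above background on all 12 arrays, with levels of -0.48, -0.75 and -1.54 in sham, 3.03, 1.45 and 3.16 after POL5551, -1.48, -1.38 and 2.34 after 2 days of G-CSF, and 2.94, 1.03 and 2.62 after 5 days. In every group the array with the highest member median also had the lowest stromal value. These were sham 3 (0.15 and -1.32), POL5551 mouse 2 (0.60 and -0.12), 2-day mouse 2 (-0.21 and -0.67) and 5-day mouse 2 (0.38 and -0.52).

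The 10 erythroid genes, 7 of them well above background on all arrays, ran from -0.42 to 0.07 in sham, 0.13 to 0.32 after POL5551, -0.40 to 0.10 after 2 days and 0.08 to 0.28 after 5 days. For the 10 mature neutrophil genes (6 on all arrays) the ranges overlapped between all groups, at -0.86 to 0.35, -0.35 to 0.90, -0.53 to 0.36 and -0.51 to 0.59 in the same order. Of the 8 tested T and NK genes, 7 had a lower mean after POL5551 than in sham, and the list ran from 0.06 to 0.17 in sham, -0.95 to -0.45 after POL5551, 0.48 to 0.72 after 2 days and -0.42 to 0.55 after 5 days. The exception was Nkg7, a granule protein of cytotoxic cells, which was well above background on all arrays and differed by 2.43 after POL5551 (limma adjusted p = 0.0569) and by 1.57 without sham 1. The 5 tested mast cell genes ran from -0.48 to 1.44 in sham, with sham 1 the highest array, -1.40 to -0.33 after POL5551, 0.77 to 0.96 after 2 days and -0.40 to 0.63 after 5 days. The 8 megakaryocyte genes ran from -0.80 (sham 1) to 0.48 in sham and from 0.10 to 0.30 after POL5551. Gp1ba among them was called higher after POL5551, at least 2.74-fold (limma adjusted p = 0.0419, and 0.131 without sham 1), with no sham array well above background. The primary granule, macrophage, B lymphoid and endothelial lists had ranges that overlapped between sham and POL5551 and no gene called there. The part of these cells in the differences of the 42 genes was not tested.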

How the data were processed

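Per the file headers, the deposited scanner files hold the Cy5 signal of each spot as a linear intensity from Agilent Feature Extraction 11.5.1.1 (a version also in the submitters' processing notes), with background subtracted and no normalization between arrays. The authors' table of values also holds intensity, with nearly equal quantiles in every column, and was used as an alternative. Within POL5551 and 5 days of G-CSF it numbers mice differently from the scanner files, whose numbers are used here. The processing behind it is not given in the sources used here.

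Outlier spots (60 to 267 per array) were left out, spots of a probe were averaged as log2 intensity, and the array's 75th percentile over probes other than controls was subtracted. Probes well above background on at least 3 of 12 arrays were kept, named by RefSeq accession, symbol or synonym, with the brightest probe per gene. Probe positions are the mm9 positions in those files. Groups were fitted in limma 3.58.1 (R 4.3.3) as group means over all 12 arrays (8 residual and 3.23 prior degrees of freedom), with 5 two-sided comparisons and the F test, each adjusted over 33177 genes. The procedure was tested on simulated data for POL5551 against sham. Of 50 genes planted at a log2 difference of 1, 0 were called. At planted differences of 2, -2 and 4 it called 38%, 34% and 86%, with 2 false calls. The lack of a call thus does not speak against a log2 difference of about 1.

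Nothing says which mice shared a cage or a day. The p-values rest on the spread between arrays within groups, pooled over the groups. With 1 array per mouse, that spread holds differences between arrays and slides as well as between mice. The values on every array are given for Myc, Mycn, the gene of each role with the smallest F test p and that with the highest level, and the 2 highest and 2 lowest differences of each comparison, and other genes by their differences only. The members, lists and alternatives were chosen with earlier results of these data known. Alternatives were other scalings and background corrections, filters, probe averaging, array weights, slide or replicate number as a block, the off-tissue median as a covariate, and each array left out. Counts of groups that do not overlap without sham 1 were added after seeing the data. Polr1f, Polr1g, Polr1h and Amd1 were not found on the array under these names, and no promoter window was used for Rrs1, Srm, Bop1, Npm1, Rrp12, Myc and Fbl.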

Additional observations from a re-analysis of the deposited data

How the results depend on the processing

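The number of arrays and the spread of the shams limit what these comparisons can resolve, with a median standard error of 0.39 and a highest of 1.22 over the 42 genes. No setting called any of the 42 genes for either G-CSF course against sham or for POL5551 against 5 days. Calls were 1 gene (Bysl, limma adjusted p = 0.0481) for POL5551 against sham without sham 3, with a range of 0 to 1 over the arrays left out, and 8 between 5 and 2 days with array weights. The F test called 2 genes, Polr1a and Rrs1, among the 38 well above background on all 12 arrays (5.26%, where 14% of all genes were called), 6 with array weights (14.3%, where 16.2% were), and 0 to 10 when 1 array was left out. The 10 (23.8%) came without sham 1, when 23.1% of all genes were called. Over all genes, calls ran from 0 (off-tissue covariate) to 4664 (without sham 3) around 744 for POL5551 against sham, from 0 to 268 around 11 and from 0 to 55 around 22 for 2 and 5 days against sham, from 0 to 4620 (array weights) around 0 for 5 against 2 days, from 0 to 91 around 20 for POL5551 against 5 days, and from 23 to 7666 around 446 for the F test.

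Median scaling moved the median over all genes for POL5551 against sham from -0.52 to -0.12, and the median of the 42 to 1.06. It gave 0.75 for 5 against 2 days and 0.52 for POL5551 against 5 days. With slide as a fixed block the medians were 0.99 for 5 days against sham and -0.10 for POL5551 against 5 days. With the off-tissue covariate they were -0.20 for POL5551 against sham, -0.049 for 5 days against sham, 0.077 for 5 against 2 days and -0.15 for POL5551 against 5 days. The cause of these changes was not tested.

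Of the values of single genes, 1044 were unchanged, 14 passed the threshold and 12 turned. These counts pool differences with F test p-values, which have no direction. For the F test, unchanged means only the same side of the threshold. No gene followed here passed it in the main fit, so that side was the one without a call. The 1044 is therefore not a count of directions that held. Under the off-tissue covariate Polr1b (0.50), Noc2l (0.27), Ddx21 (-0.53) and Ppan (-1.65) turned for POL5551 against sham, Utp20 (-0.33) for 5 against 2 days, and Ppan (-1.10) for POL5551 against 5 days, where it was also -0.061 with slide as a fixed block. For 2 days against sham, Wdr74 was -0.26 with array weights and ranged from -0.51 (without sham 1) to 1.76 over the arrays left out, and Ddx21 from -0.0029 (without sham 1) to 1.84. With the mean over all probes Ubtf was 0.058 and Srm 0.57 for 5 against 2 days.

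The replicate numbers are mouse numbers as the scanner files carry them and did not pair the arrays: deviations of same-numbered arrays correlated from -0.31 to 0.25 and those of other pairs from -0.27 to 0.43. With the replicate block no gene of the 42 was called and the medians kept their values, such as 0.66 for POL5551 against sham, while the count over all genes there went from 744 to 179. The authors' value table numbers some mice otherwise: its POL5551 columns 1, 2 and 3 match the scanner arrays numbered 2, 3 and 1, and its 5-day columns 2 and 3 match arrays 3 and 2, always within the group. With the table's numbers as the replicate block, an alternative added after seeing the data, none of the 42 was called, the median for POL5551 against sham was 0.66, and 638 genes were called there. Same-numbered arrays then correlated from -0.27 to 0.25.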
